A study of Mus musculus with 6 samples.

Results

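The regions described here are stretches of chromatin in ATDC5 cells that were weak or unlisted before differentiation, strong by day 3 of differentiation and still strong at day 10. ATDC5 is a mouse chondrocyte precursor line. Chromatin accessibility was read by ATAC-seq, an assay in which a transposase cuts exposed DNA, so that an open site collects many reads and is listed as a peak. Per the labels, the cells were spotted as dense droplets, given 24 hours to attach, and differentiated in medium with 10 mM beta-glycerophosphate and ascorbate-2-phosphate. The Day0 libraries are labelled as control and the Day3 and Day10 libraries as differentiation. Each of the 3 groups has 2 libraries, labelled as independent biological replicates, and no genotype or transgene is named.

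Members were chosen by rank from the peak lists the authors deposited. In each library the peaks on chromosomes 1 to 19 and X were ordered by the authors' fold over background, with the strongest first. Overlapping peaks from the 50000 strongest of any library were merged into 73933 regions. A region was a member when it held a peak of rank 50000 or better in both Day3 and both Day10 libraries, and no peak of rank 100000 or better in either Day0 library. This left 280 regions, 0.379% of all regions, with a summed length of 223 kilobases. A region that meets neither limit on a day is called intermediate on that day. Day3 strength and Day0 weakness are therefore properties of the rule, and the values that show them are given as a description. The label "open by day 3" also needs care, because 195 of the 280 regions, 69.6%, still had a listed weak peak in both Day0 libraries. Another 32 had one in 1 Day0 library, and 53 had none in either.

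Differentiating chondrocytes pass from a proliferating precursor that lays down collagen to a cell that secretes cartilage matrix, and later to a hypertrophic cell. The factor SOX9 and its partners SOX5 and SOX6 drive the first step, and RUNX factors take part in the last. Most sites that open in such a transition are distal enhancers, short stretches where transcription factors displace nucleosomes and act on genes nearby or far away. Promoters are in contrast often open in precursor and differentiated cells alike. An accessible site is a place where factors can bind, and accessibility alone gives neither the factor nor the gene it acts on. The lists follow the GRCm39 assembly, and the regions were not assigned to genes here, nor was the cell type label checked against marker genes.

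The libraries differ between days in ways that touch every value below. On these chromosomes 164237 and 164579 peaks were listed before differentiation, 177334 and 176710 on day 3, and 380813 and 389571 on day 10. Depth, estimated from the background and the smallest peak width and set to 1 in Day0 replicate 1, was 0.997 in the other Day0 library, 1.13 and 1.11 at Day3 and 1.96 in both at Day10. All peak names hold the word lysis at Day3 and the mark S2 at Day10, and neither at Day0. A separate handling of the Day3 or Day10 libraries and the day itself cannot be told apart. With 2 libraries against 2, an exact two-sided permutation test cannot give a p below 0.333, so no p-value is given. A difference is counted only where both libraries of a day lie beyond both of the other day.

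**Figure D1:**
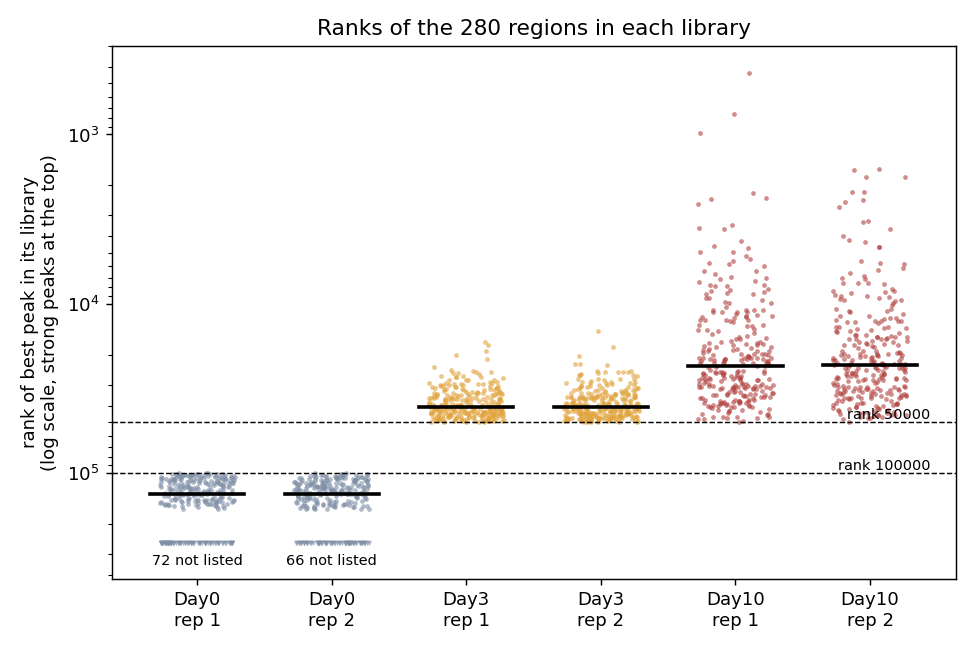
Rank of the best peak in each of the 280 regions (vertical log axis, strong peaks at the top) in the 6 libraries; black bars are medians with unlisted regions placed last, triangles are regions with no listed peak, and dashed lines are ranks 50000 and 100000. The Day10 medians, 23255 and 23021, sit above the Day3 medians, 40573 and 40527, and the Day10 points spread up to rank 432.

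Members were not among the strongest sites on day 3. With unlisted regions placed last, their median rank was 132704 and 132739 before differentiation, 40573 and 40527 on day 3, and 23255 and 23021 on day 10. At Day10, 99 members were within the 20000 strongest peaks of both libraries, 38 within the 10000 strongest and 13 within the 5000 strongest. At Day3, 1 member was within the 20000 strongest of both libraries and 102 were within the 40000 strongest. The plot of ranks by library thus shows a broad spread at Day10 and a narrow band at Day3, just inside the limit of the rule. The authors' fold had a median of 6.12 and 5.78 over the members listed before differentiation, of 17.8 in both libraries of day 3, and of 26.4 and 27.0 on day 10.

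The early part of the gain can be put in numbers for the 195 regions listed in both Day0 libraries. Their fold at Day3 was 2.98 times that at Day0 (median; quartiles 2.62 and 3.51). This ratio follows from the rule and is not a finding. By Day3 they had covered a median of 61.5% of the distance between their Day0 fold and their Day10 fold, with quartiles of 48.2% and 75.4%. The authors' fold adds 1 to the pileup and to the background, which lowers folds more in shallow libraries. On the plain ratio of pileup to background the share covered was 75.4%, with quartiles of 59.4% and 95.8%. The rule shapes both shares too, since a gained region that was weaker at Day3 was not a member. They are given as a description.

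Of the members, 225 of 280, or 80.4%, ranked better in both Day10 libraries than in both Day3 libraries. The same was true of 30.9% of the 32064 regions open in all 4 of these libraries. A worse rank in both Day10 libraries was found for 11 members, 3.93%, against 42.4% of those regions. The other 44 members overlapped between the days. With 1 library left out a worse rank needs fewer values to line up, and its share was 6.76% without Day3 replicate 1, 6.74% without Day3 replicate 2, 7.27% without Day10 replicate 1 and 9.80% without Day10 replicate 2. The rule sets no order between Day3 and Day10, but it holds both below rank 50000, and a member close to that limit at Day3 had little room to worsen. Regions open on all days meet the same limit, so both were split by mean Day3 rank, a division chosen after seeing the data.

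**Figure D2:**
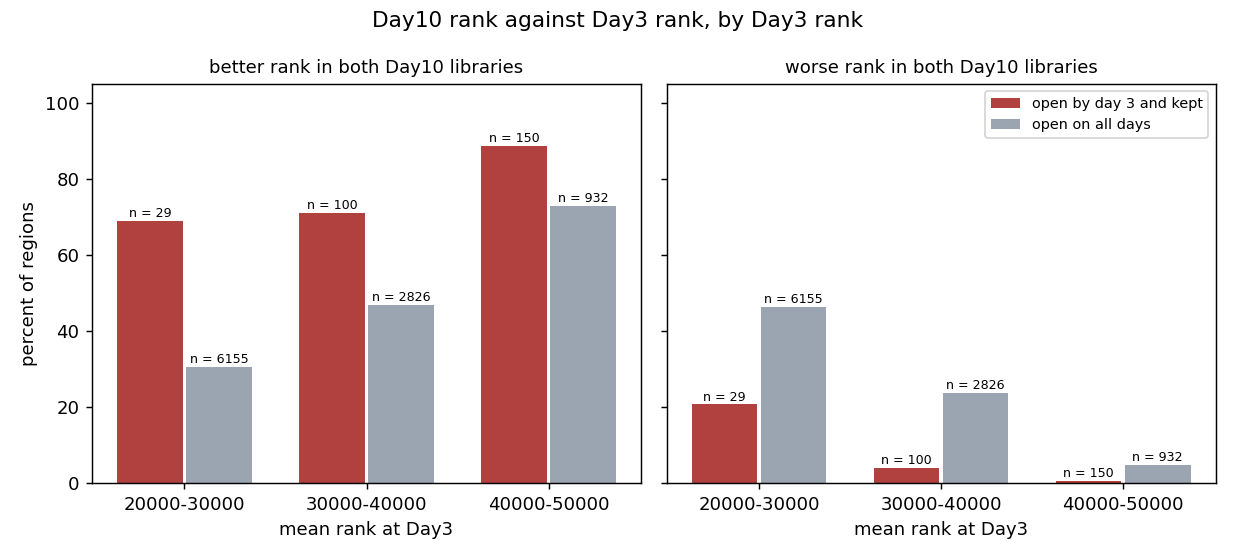
Percent of regions with a better (left panel) or worse (right panel) rank in both Day10 libraries than in both Day3 libraries, by class of mean Day3 rank (horizontal axis), for regions open by day 3 and kept and for regions open on all days, with the number of regions above each bar. In the class from 30000 to 40000, 71.0% of the members and 46.8% of the regions open on all days ranked better at Day10.

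In each class with more than 1 member, a larger share of members than of regions open on all days ranked better at Day10. In the class from 20000 to 30000 it was 20 of 29 members, 69.0%, against 30.6% of 6155 regions open on all days. From 30000 to 40000 it was 71.0% of 100 members, against 46.8% of 2826. From 40000 to 50000 it was 88.7% of 150 members, against 73.0% of 932. The better rank was thus more frequent toward the limit in both kinds of region, and in these 3 classes it was more frequent in the members. By pileup over background the 29 members of the first class were evenly divided, with 11 higher and 11 lower at Day10, against 11.8% higher and 68.4% lower in the regions open on all days. These shares carry no test, since regions are not replicates of a day.

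The size of the later gain depended on the scale. The median ratio of Day10 to Day3 fold was 1.45 in the members and 0.942 over all regions open on both days. For pileup over background these medians were 1.24 and 0.794, so the scale itself moved the median of all regions. By fold, 253 members were higher in both Day10 libraries and 5 were lower, against 28.6% and 49.2% of all regions open on both days. By pileup over background, 195 were higher and 29 lower, against 12.4% and 74.4%. These backgrounds are not matched for Day3 rank. The fold at rank 50000 was 17.75 and 17.66 in the Day10 libraries, against 14.46 and 15.01 in the Day3 libraries. A region open on both days with both Day3 folds below 17.66 was therefore bound to be higher by fold at Day10. Counts by fold and the fold ratio thus follow in part from the limit, most of all near rank 50000 at Day3. For mean Day3 ranks from 40000 to 50000, fold was higher in 148 of 150 members. The same was true of 878 of 932 regions open on all days. Pileup over background was higher there in 83.3% and 64.6%. From 30000 to 40000, fold was higher in 84 of 100 members and 1763 of 2826 such regions, and pileup over background in 59% and 32.9%. On each of the 3 measures the members had a larger share of higher values than all regions open on both days. These measures are not independent, since ranks and pileups over background come from the same folds. The largest pileup was 136 and 144 in the Day10 libraries, against 171 and 174 in the Day3 libraries.

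The strongest member on day 3 was chr10:75427338-75427999, a region of 662 bases. Its fold was 6.99 and 5.78 before differentiation, 30.02 and 32.3 on day 3, and 32.1 and 33 on day 10. By pileup over background it was lower at Day10, with 60.9 and 60.8 against 66.4 and 71.4 at Day3, so the direction of its last step depended on the scale. The next members by Day3 strength went on to higher folds. For chr5:136497782-136498920 the fold was 6.99 and 5.78 before differentiation, 29.5 and 26.1 on day 3, and 35.98 and 34.9 on day 10. For chr7:65860789-65861531 it was 6.41 and 7.51 before differentiation, 25.02 and 29.5 on day 3, and 35.98 and 35.3 on day 10. In both regions the Day10 folds and ranks lay above those of Day3, while their pileups over background overlapped between the days.

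The other 7 of the 10 members strongest at Day3 took different courses. The clearest gain was that of chr16:24100642-24101546, with folds of 5.24 and 5.78 before differentiation, 24.5 and 25.02 on day 3, and 40.8 and 42.3 on day 10. Its Day10 ranks of 2574 and 2195 put it among the strongest peaks of those libraries. A smaller gain was seen for chr15:86142198-86143031, whose folds were 33.1 and 38.1 at Day10, against 27.2 and 24.5 at Day3. The step was smaller still for chr2:50258429-50259431, with folds of 28.3 and 27.0 at Day10, against 24.5 and 23.9 at Day3, and its pileups over background overlapped between the days. Folds and ranks overlapped between the days for chr7:129602570-129604053, with folds of 26.4 and 27.9 at Day10 and 27.8 and 24.5 at Day3. Its pileup over background was lower at Day10, with 49.8 and 51.2 against 61.4 and 53.9 at Day3. Lower folds at Day10 were found in 2 of these 7 regions. The folds of chr11:89338135-89339905 were 21.6 and 24.6 at Day10, against 25.6 and 25.02 at Day3. Those of chr9:102426312-102426903 were 18.2 and 19.99 at Day10, against 24.5 and 26.1 at Day3. The last of the 7 is chr2:5298776-5299706, which held no Day0 peak and is described below.

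**Figure D3:**
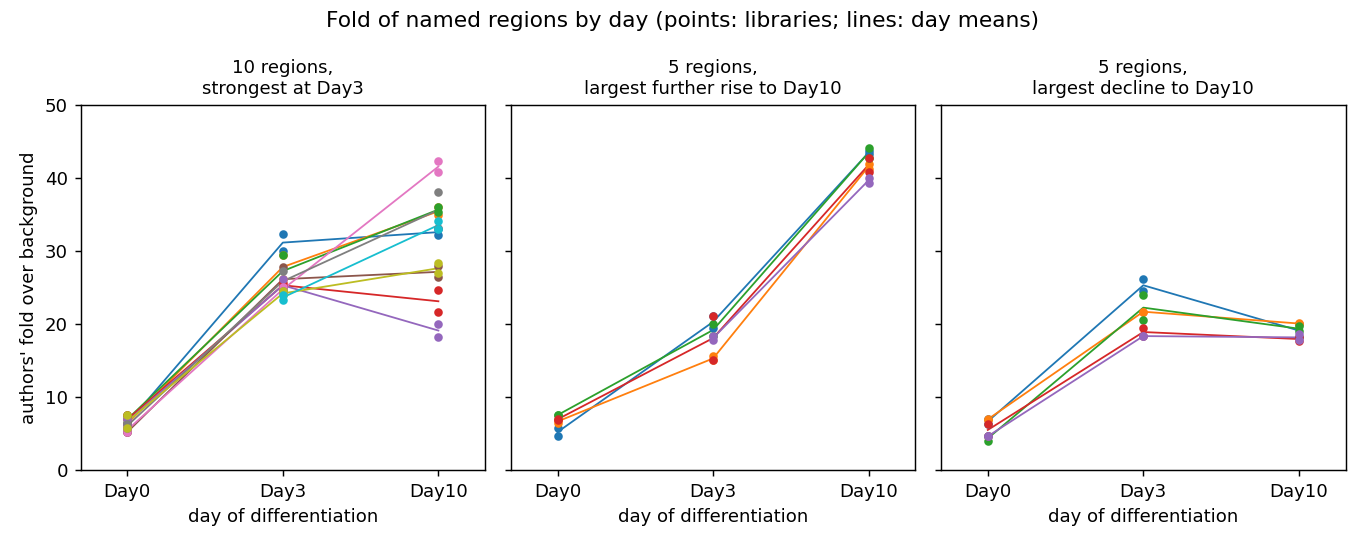
Authors' fold over background (vertical axis) on the 3 days for the 10 members strongest at Day3, the 5 with the largest further rise in rank to Day10 and the 5 with the largest decline; points are libraries and lines join the day means, with no Day0 point for a region not listed there. Folds of the middle panel lie between 15.01 and 21.1 at Day3 and between 39.3 and 44.1 at Day10.

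The members with the largest further rise were ranked by the ratio of the better Day3 rank to the poorer Day10 rank. The first 5 had ranks between 32312 and 49013 on day 3 and ended among the strong peaks of day 10. The first was chr8:70822562-70823958, with folds of 4.66 and 5.78 before differentiation, 19.5 and 21.1 on day 3, and 43.7 and 43.2 on day 10. Its ranks were 984 and 1591 at Day10, against 35802 and 32495 at Day3. Next came chr11:4142688-4143576, with ranks of 2212 and 2442 at Day10, against 49013 and 47570 at Day3, where it was barely inside the limit. Both thus ended within the 2442 strongest peaks of each Day10 library, although the second was the weaker on day 3. The third was chr6:30643769-30645250, with ranks of 756 and 1786 at Day10, against 34287 and 38871 at Day3. The fourth was chr5:136832885-136833495, with ranks of 2410 and 1778 at Day10, against 48437 and 32312 at Day3, and of the 5 its Day3 libraries were farthest apart. The fifth was chr2:180252690-180254309, which was unlisted before differentiation. It had ranks of 3414 and 3627 at Day10, against 39637 and 38589 at Day3. In all 5 regions both Day10 folds lay far above both Day3 folds, at 39.3 or more against 21.1 or less.

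Declines, ordered by the ratio of the better Day10 rank to the poorer Day3 rank, were smaller than rises, but the rule limited them. A member could not rank beyond 50000 at Day10, while a rise could run to the top of the list. The largest was that of chr9:102426312-102426903, with ranks of 47390 and 41509 at Day10, against 25548 and 23055 at Day3. It was followed by chr9:115489527-115490436, with 40134 and 41515 at Day10, against 30909 and 31449 at Day3. For chr5:36784532-36785026 the ranks were 41385 and 44363 at Day10, against 32960 and 26702 at Day3. These 3 regions were stronger than the median member on day 3 and weaker than it on day 10. The ranks of chr2:164214545-164215003 were 46631 and 49633 at Day10, against 35354 and 38578 at Day3. Those of chr14:23542881-23543510 were 49853 and 46999 at Day10, against 39061 and 39520 at Day3. Both chr2:164214545-164215003 and chr14:23542881-23543510 ended close to rank 50000 at Day10, beyond which a region is no member. Across all members the mean Day3 rank was 1.65 times the mean Day10 rank in the median, with a lowest value of 0.547 and a highest of 28.8, found for chr6:30643769-30645250. Mean ranks give another order within these sets: the rise of chr14:29731582-29734644 was then 4.27 on the log2 scale, above the 3.47 of chr2:180252690-180254309. The decline of chr5:36784532-36785026 was -0.52, beyond the -0.39 of chr9:115489527-115490436.

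Regions that had opened by day 3 can also be followed forward to see how many were not kept. Of 73933 regions, 415 met the rule at Day3 against Day0 alone, which is 0.561%. Of these 415, 280 were still strong at Day10 and are the members, 114 were intermediate at Day10 and 21 were out of the 100000 strongest in both Day10 libraries. The median Day3 fold of the members was 17.8 in both libraries, against 16.7 in both libraries of the 135 regions that were not kept. Median Day3 ranks were 40573 and 40527 in the members, against 43981 and 43359 in the regions not kept. All 135 regions not kept were still listed in both Day10 libraries, with median folds of 13.4 and 13.5. A Day0 peak was listed for 74.3% and 76.4% of the members, against 80.0% and 77.0% of the regions not kept. The members were the wider regions, with a median of 703 bases against 440 bases. Region width includes the Day10 peaks, which the choice of the 135 regions makes weak. At Day3 alone, the best peak had a median width of 437 and 436 bases in the members, against 375 and 378 bases in the regions not kept.

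Seen from day 10, the members are a small part of what was gained. The rule at Day10 against Day0 was met by 8375 regions, or 11.3% of all. Of these, 3.34% were members, 30.4% were intermediate at Day3 and 66.3% ranked beyond 100000 or were unlisted at Day3. The members had the highest median Day10 folds of these 3 gained classes. Their median Day10 fold was 26.4 and 27.0, against 23.5 and 23.7 in the regions intermediate at Day3 and 22.1 and 22.8 in those that opened only after day 3. The share within the 10000 strongest peaks of both Day10 libraries was 13.6% of members, 5.04% of the intermediate regions and 2.47% of the late regions. All 3 classes meet the same Day10 limit, but only the members were also chosen for strong Day3 peaks. Members are thus strong on both days by choice, and these values are given as a description. These shares carry no test. Regions open on all days had higher Day10 medians, 29.7 and 30.2.

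The 3 gained classes also differed in how often a weak peak was already listed before differentiation. A peak was listed in the Day0 libraries for 74.3% and 76.4% of the members, for 51.9% and 51.7% of the intermediate regions, and for 13.7% and 14.01% of the late regions. All 3 classes obey the same rule at Day0, which allows either state. They are divided by Day3 rank, however, and their regions differ in width. Median widths were 703 bases in the members, 633 in the intermediate and 594 in the late regions. The part of Day3 rank and width in these shares was not tested. Where listed, Day0 peaks were weak in all 3 classes, with median folds of 6.12 and 5.78 in the members and 5.24 and 5.20 in the late regions. Within the members, the Day0 state went with small differences later. The 53 members with no Day0 peak had a median mean rank of 23089 at Day10 and 42626 at Day3. The 195 listed in both Day0 libraries had medians of 22680 at Day10 and 39580 at Day3. A better rank at Day10 was found in 45 of the 53 and in 153 of the 195.

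The member strongest at Day3 among those with no Day0 peak was chr2:5298776-5299706. Its fold was 34.1 and 33 at Day10, against 23.4 and 23.9 at Day3. Next was chr13:120774098-120774654, with folds of 23.0 and 20.9 at Day10, against 22.8 in both Day3 libraries, and its ranks were worse at Day10. The first of these regions thus gained further and the second did not. Folds of chr8:18770669-18771912 were 32.6 and 34.4 at Day10, against 22.2 and 27.8 at Day3. Those of chr5:107350516-107351480 were 29.3 in both Day10 libraries, against 21.1 in both Day3 libraries. Folds and ranks of chr7:65067165-65067862 overlapped between the days, with folds of 20.6 and 22.8 at Day10 and 20.02 and 22.8 at Day3, while its pileup over background was lower, at 38.7 and 41.7 against 43.8 and 50.1. In 3 of these 5 regions both Day10 folds lay above both Day3 folds. The lowest fold listed at all was 3.50 and 3.47 in the Day0 libraries, so a region absent from those lists may still hold some reads.

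Peak width was not used by the rule, but peak strength was, and weak Day0 peaks were also narrow in the other gained classes. Their median widths were 144 and 146 bases in the intermediate regions and 120 and 123 bases in the late regions. The best peak of a member had a median width of 143 and 151 bases at Day0, over listed peaks, 437 and 436 bases at Day3, and 611 and 655 bases at Day10. It was wider in both Day10 libraries than in both Day3 libraries in 236 members, 84.3%, against 37.6% of all regions open on both days. It was narrower in 9 members, against 29.9%, and neither background share is matched for Day3 rank. Regions open on all days had median widths of 784 and 813 bases at Day10 and 791 and 780 bases at Day3, so no such step was seen there. The other gained classes had larger steps. Intermediate regions had medians of 582 and 602 bases at Day10, against 260 and 262 at Day3. Late regions had 546 and 565 bases at Day10, against 130 and 133 at Day3 over listed peaks. The smallest width listed was 68 and 72 bases at Day10, against 87 and 88 at Day3, and fold and depth were also higher at Day10. Their part in the wider member peaks was not tested.

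**Figure D4:**
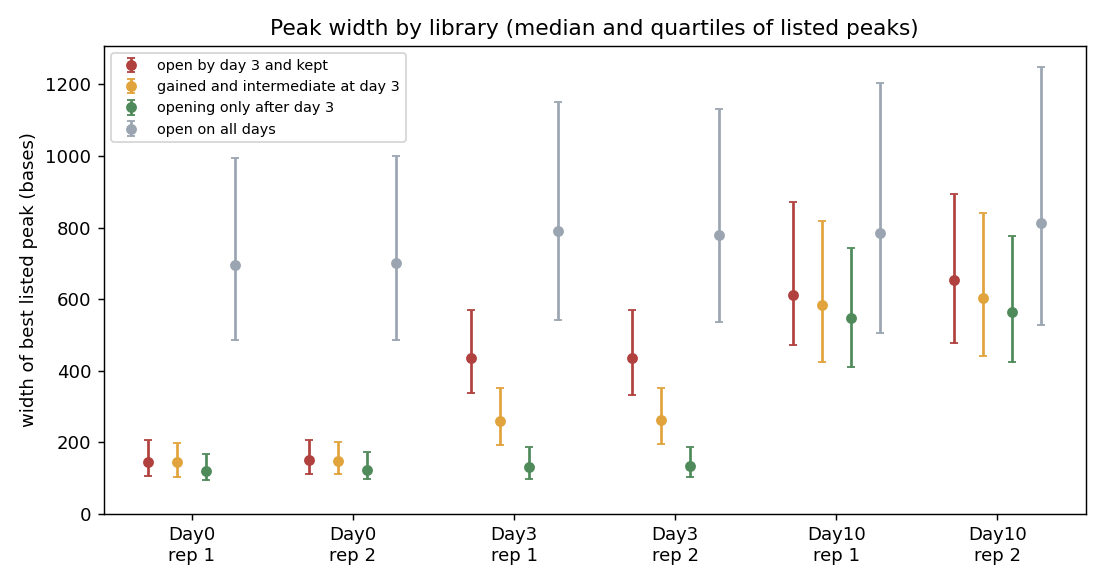
Width in bases of the best listed peak (vertical axis) in each library for the 3 gained classes and for regions open on all days; points are medians and bars run from the lower to the upper quartile. The members stand at 611 and 655 bases at Day10, against 437 and 436 bases at Day3, while regions open on all days stay between 780 and 813 bases on both days. The other gained classes are also wider at Day10 than at Day3.

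In some members, several peaks of day 3 were listed as 1 peak on day 10, though little more often than in regions in general. Several listed peaks in both Day3 libraries and 1 peak in both Day10 libraries were found in 15 members, 5.36%, against 3.97% of all regions open on both days. The opposite was seen in 2 members, 0.714%, against 7.88%. In all, 24 members held several peaks in both Day3 libraries. Of the members, 184, or 65.7%, held 1 peak in all 4 libraries, against 45.6% of all regions open on both days. Most regions of this background are open on all days, and those are wider, with a median of 1013 bases against 703 bases in the members. The part of width in these shares was not tested. Counts per library moved little, since several peaks were found in 14.6% and 10.4% of members in the Day10 libraries, against 15% and 13.9% in the Day3 libraries. The widest member, chr14:29731582-29734644, shows the first pattern in part. It held 3 peaks and 1 peak in the Day10 libraries, against 4 and 3 peaks in the Day3 libraries. Its best peak was 1904 and 3063 bases wide at Day10, against 369 and 431 bases at Day3, and its Day10 ranks were 432 and 2496. The third widest, chr14:27072201-27074768, shows it fully. It held 1 peak in each Day10 library, 2568 and 2409 bases wide. At Day3 it held 3 and 4 peaks, the best of them 988 and 667 bases wide. The second widest, chr8:25929202-25931938, belongs to a group of members described below.

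The point of highest signal mostly stayed in place while peaks widened. The mean summit of the Day10 libraries lay within 50 bases of that of the Day3 libraries in 216 of 280 members, 77.1%, and over 250 bases away in 6, 2.14%. These shares were 77.5% and 6.05% over all regions open on both days, so the share within 50 bases was near that background. The median distance between Day10 and Day3 summits was 18 to 22 bases over the 4 pairs of libraries. Between replicates it was 9.5 bases at Day10 and 11 bases at Day3. The weak Day0 peaks lay close to the same points. Where listed, their summits lay a median of 24.5 to 28 bases from those of the Day3 libraries, and the Day0 replicates themselves lay 23 bases apart. In the regions that opened only after day 3, the weak peaks listed at Day3 lay a median of 39 to 42 bases from the Day10 summits, while replicates lay a median of 10 bases apart at Day10 and 29 bases apart at Day3.

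Members lay on all 20 chromosomes used. The numbers ran from 26 on chromosome 2, 25 on chromosome 8 and 24 on chromosome 5 down to 6 on chromosome 12 and 1 on chromosome 18. Chromosome 8 held 8.93% of the members and 5.42% of all regions, and chromosome 18 held 0.357% and 2.47%. Regions that opened only after day 3 were closer to the share of all regions on both, with 5.58% on chromosome 8 and 2.22% on chromosome 18. Chromosome 14 held 5.36% of the members and 3.61% of all regions, and chromosome 4 held 3.21% and 6.10%. These chromosomes were picked after their values were seen, and the counts, of at most 26 regions, carry no test.

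Most members stood apart from each other, and many had another gained region nearby. Another member lay within 100000 bases of 41 members, 14.6%, and within 10000 bases of 14, 5.00%. Over all regions, a member lay within these distances of 4.59% and 0.652%. A region intermediate at Day3 lay within 10000 bases of 15.4% of members, against 5.90% of all regions, and one that opened only after day 3 lay that close to 20.7%, against 11.4%. Regions lost by Day10 were that close to 6.79% of members, against 9.63% of all regions. A region open on all days was that close to 34.3% of members, against 44.4%. Any region at all lay within 10000 bases of 75.7% of members and of 72.2% of all regions, so the number of members with a neighbour was close to that of regions in general. The 135 regions open at Day3 but not kept had a late neighbour within 10000 bases in 6.67%, an intermediate one in 5.19% and any region in 53.3%. Gained neighbours were also found near the other gained classes. Of the intermediate regions, 21.1% had a late and 10.4% an intermediate neighbour within 10000 bases, and of the late regions 25.2% and 11.0%.

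**Figure D5:**
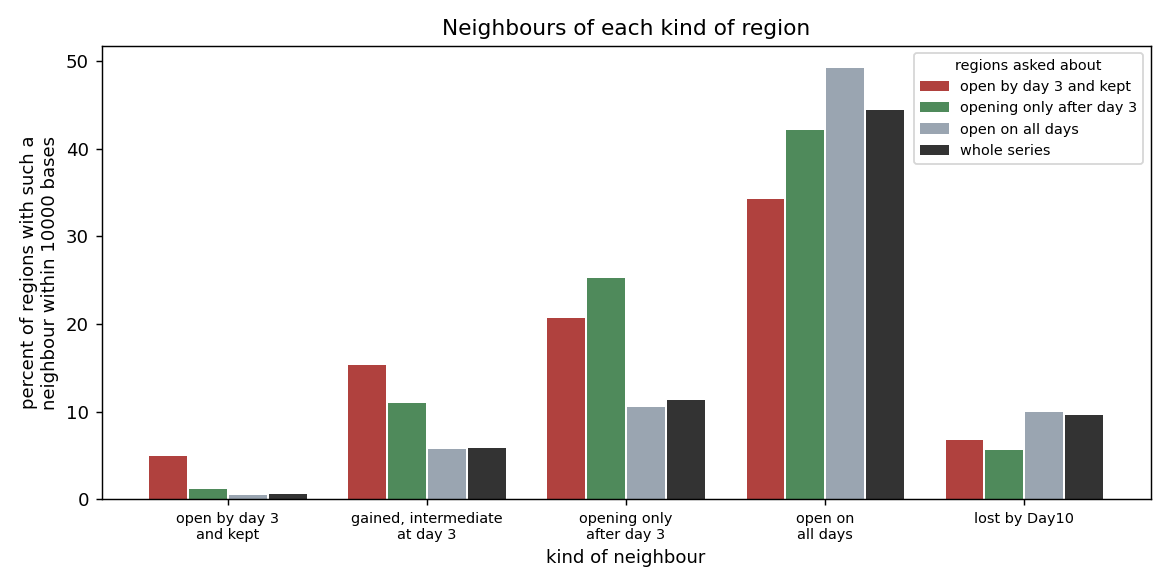
Percent of regions (vertical axis) that have at least 1 region of the named kind within 10000 bases, for regions open by day 3 and kept, regions opening only after day 3, regions open on all days and the whole series. Members have the 2 other gained kinds as neighbours in 15.4% and 20.7%, against 5.90% and 11.4% in the whole series.

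There were 3 groups of 3 members with gaps of at most 100000 bases. On chromosome 8, regions starting at 25832375, 25848475 and 25929202 all ranked better at Day10 than at Day3. The last of these, 2737 bases wide, ranked 9542 and 4603 at Day10, against 41723 and 40532 at Day3. Its mean summits on these days lay 337.5 bases apart. The first held summits in different places on the 2 days, a mean of 595 bases apart, and its best peak was 1404 and 1304 bases wide at Day10, against 627 bases in both Day3 libraries. Around each of the 3, within 100000 bases, lay 3 or 4 regions that opened only after day 3 and 2 or 3 that were intermediate at Day3.

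The group on chromosome 10 held regions starting at 58436711, 58437209 and 58474637. The first 2 are parts of nearly 1 open stretch, since the first ends at 58437177. They took unequal courses. The first had folds of 26.9 and 26.0 at Day10, against 23.9 and 23.4 at Day3, but its pileup over background was lower at Day10, with 50.7 and 47.8 against 52.6 and 51.4. The second had 31.2 and 34.9 at Day10, against 17.2 and 16.1 at Day3. The order of the 2 adjoining peaks was thus reversed between the days. The third had folds of 26.4 and 28.4 at Day10, against 15.01 in both Day3 libraries. Its mean summits on these days lay 513.5 bases apart, so the folds come from different points of the region. It held 3 peaks in each Day3 library. In all, 6 members lay within 1000 bases of another.

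The group on chromosome X held regions starting at 9928221, 9982024 and 9982806. The first ranked worse at Day10, at 48244 and 45629, against 39383 and 42999 at Day3, although its mean fold was slightly higher at Day10. The second ranked better, at 31865 and 26315 at Day10, against 42570 and 41306 at Day3, and had no Day0 peak. The third also ranked better, at 16090 and 20365 at Day10, against 37918 and 44649 at Day3. No region that opened only after day 3 lay within 100000 bases of any of them. The 3 regions of this group thus did not move in 1 direction.

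Values at the edges of the rule show how fine its limits are. Just inside the limit for open regions, chr2:143873486-143874221 had ranks of 50000 and 48532 at Day3, with folds of 14.5 and 15.01. Just outside it, chr3:90491104-90492086 had ranks of 50086 and 48615, with the same folds. Membership thus turned on the order of tied peaks in these 2 regions. The regions chr6:98726146-98726907 and chr6:101537187-101537524 missed the limit in 1 Day10 library, at ranks 50074 and 50078. The members chr16:92618973-92619774 and chr16:91955268-91956252 held ranks of 49984 and 49982 in Day3 replicate 2. At the Day0 limit, the nearest members stood at rank 100018 for chr3:68601099-68601457, 100217 for chr1:152980580-152981285 and 100307 for chr4:55646525-55646873. The nearest regions that failed it stood at 99902 for chr2:180691357-180691911, 99899 for chr2:179948579-179949088 and 99886 for chr2:172958472-172959178. The number of peaks that tie at the fold found at rank 50000 was 1666 to 2060 per library, so the order among them is set by position alone.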

How the data were processed

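ATAC-seq peak lists of 6 ATDC5 libraries were used, 2 per day, and reads were single-end of 75 bases per the labels. The lists were deposited per library and not on pooled libraries. Trim Galore and mm10 are named in the submitters' processing notes, while aligner, peak caller and any shift of reads for the transposase cut were not given in the sources used here. The authors' fold ratio, −log10 p, −log10 q and score per peak are their own values, and the fold is deposited per peak as a linear ratio over background. Its steps match (pileup + 1) / (background + 1), taking 1 background value for each library, and the recovered pileups were whole within 0.01 in 100% of peaks. These background values ran from 0.7165 and 0.7308 before differentiation over 0.7985 and 0.7984 on day 3 to 1.0845 and 1.1515 on day 10. Total read numbers were not used here, so counting error is not given. PCR duplicates and depth limit the precision of single peaks.

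The lists hold the scaffolds MU069434.1 and GL456233.2 of GRCm39, so positions are read as GRCm39, counted from 1. A GRCm38.p6 gene table was at hand: of its 21631 protein-coding genes, 7.75% to 7.85% had a strong summit near an end, which dropped to 5.43% to 5.64% once all genes were moved by 1 megabase. It was therefore not used for positions, and gene names, gene starts, motifs and sequences are not reported.

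Peaks were ordered by fold, with ties by chromosome and start. Each region took the values of its best-ranked peak with at least 1 base of overlap in that library. Scaffolds and chromosome Y were left out. Named regions are the 10 members with the best poorer Day3 rank, the 5 with the largest rise and the 5 with the largest decline between non-overlapping ranks, the 5 strongest without a Day0 peak, the 3 widest, the largest groups and those nearest the limits. Members and rules were chosen with earlier results of these data known. The rule's code recovered all regions planted in simulated lists. The planted regions stood apart and far from the limits, so tied peaks and regions near a limit were not tried. Python 3.11.15, numpy 2.4.6 and pandas 2.3.3 were used.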

Additional observations from a re-analysis of the deposited data

How the results depend on the processing

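The 280 members depend on where the limits are set. With an open limit of 40000 there were 89 members, with 60000 there were 672, with a Day0 limit of 75000 there were 727, with 150000 there were 77, and with no listed Day0 peak at all 53. Ordering by −log10 q gave 280, as it had to, since q follows the order of fold in all 6 libraries. Counting only peaks whose summit lies in the region and requiring an overlap of 50% of the peak or of the region gave 280 each. The Day3 and Day10 peaks that make a member lie wholly inside its region, so these settings could change only the Day0 side. Fixed windows around summits gave 275, and a fold of 15 for open and 7 for out gave 258. With ties broken in reverse order, a setting chosen after seeing the data, there were 279, and 266 members were found by both. Leaving out 1 library gave 289 to 356.

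The share of members with a better rank at Day10 was 74.0% with the Day0 limit of 75000, 84.9% with no listed Day0 peak, 70.9% with the fold limits, 90.4% by fold and 69.6% by pileup over background, and 77.9% to 86.8% when 1 library was left out. The share with a worse rank was 1.89% with no listed Day0 peak, 12.4% with the fold limits, 1.79% by fold and 10.4% by pileup over background, and 4.48% to 9.80% without 1 library. In all of these settings the better rank was the more frequent. The share listed in both Day0 libraries was 76.4% with the open limit of 40000, 88.3% and 10.4% with the Day0 limits of 75000 and 150000, 55.7% when a −log10 q of 5 was required, and 66.8% to 69.6% without 1 Day3 or Day10 library. Without Day0 replicate 1 or 2, the share listed in the remaining Day0 library was 80.3% and 78.9%. The share of members with another within 100000 bases was 4.49% and 23.1% with the open limits of 40000 and 60000, 7.79% with the Day0 limit of 150000, 7.55% with no listed Day0 peak, and 13.9% to 18.8% without 1 library. It was 35% at a distance of 500000 bases. The median region width was 644 to 705 bases without 1 library, and the fixed windows give no width of their own.

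Of 34 named regions, 4 whose ranks did not overlap between the days changed the sign of their mean change on 1 scale. On the log2 scale of Day10 over Day3 pileup over background, the regions on chromosome 10 starting at 75427338 and 58436711 and on chromosome 2 starting at 50258429 came to -0.18, -0.078 and -0.048. By fold, the region on chromosome X starting at 9928221 came to 0.067. On chromosome 7, 2 regions with overlapping ranks also changed sign, the one starting at 129602570 with -0.19 by pileup over background and the one starting at 65067165 with 0.02 by fold. The cause was not tested. No paired analysis was possible because the results come from no test. The planned shares near gene starts and of motifs were not run. Depth at Day10 and the length of the Day0 lists limit what a missing Day0 peak shows.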
